A study of Caenorhabditis elegans with 4 samples.

Results

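Dense clusters of NHR-2 peaks are stretches of the Caenorhabditis elegans genome where at least 5 peaks of the combined list stand close together. Peaks were sorted along each chromosome, neighbours with centres at most 10 kb apart were joined, and clusters of 5 or more peaks were kept. This gave 71 clusters holding 463 of the 2299 combined peaks (20.1%). The members were thus chosen by their positions in the combined list, so their number and closeness describe the choice and are not findings. The other 1836 peaks stood in 399 clusters of 2 to 4 peaks (987 peaks) or alone (849 peaks).

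The data came from chromatin immunoprecipitation followed by sequencing (ChIP-seq) of embryos, a mixed population of males and hermaphrodites of strain OP99 grown at 20 °C. The strain carries unc119(ed3) and the transgene wgIs99, which holds nhr-2::TY1 EGFP FLAG and unc119, and every library came from it. The labels describe 2 ChIP libraries, made with anti-GFP antibodies from chromatin crosslinked in 2% formaldehyde, and 2 input libraries of total genomic DNA from the same kind of lysate. Peak lists of the 2 ChIP libraries and of the series as a whole (the combined list) were used here. OP99 is a single transgenic line, made by bombardment, and peaks over transgene sequence cannot be told apart from peaks over the worm's own copy. All coordinates below are on the WormBase WS220 build. Peaks were not assigned to genes, because no annotation of that build was used here, so no genic, exonic or intronic position is given.

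NHR-2 belongs to the nuclear hormone receptors, transcription factors that bind DNA through a zinc-finger domain and carry a domain that in many relatives binds small lipophilic ligands. The family is much larger in nematodes than in insects or vertebrates. The nhr-2 gene is transcribed from early in embryogenesis. Developmental control regions of animals often hold several separate elements bound by transcription factors, and a ChIP-seq peak list can show them as neighbouring summits when they lie further apart than the length of the sheared fragments.

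Each deposited peak carries an interval, a score and a peak number. Peaks tied at the ceiling of the score held the lowest numbers in every list. Below the ceiling, the members' scores fell in steps as numbers rose, but within a step the score rose slightly with the number. For example, combined peaks 1876 and 2072 had scores of 2.623 and 2.666, and peak 2082 had 2.581. Across peaks, Spearman's rho of number with score was -0.9997 in replicate 1 (n = 29379), -0.9992 in replicate 2 (n = 24151) and -0.75 in the combined list (n = 2299), where combined numbers 1 to 1737 share 1 score. The number serves here as the rank, with 1 as the strongest. Within the tied peaks the score gives no check of that order, and within a step it runs the other way. The score itself separated few members, because 386 of the 463 (83.4%) were tied at the ceiling of 3.54 (all combined peaks: 75.6%). The replicate 1 list ran to number 29379 and the replicate 2 list to 24151. Read depth is unknown, so the height of a peak has no counting interval.

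The clusters were short stretches with many separate intervals. Their spans ran from 4.39 to 33.5 kb, with a median of 14.3 kb, and together they covered 1.07 Mb, or 1.07% of the chromosomes up to their last combined peak. There were 26 clusters of 5 peaks, 16 of 6, 15 of 7, 3 of 8, 5 of 9, 4 of 10, 1 of 11 and 1 of 12. Combined intervals filled 15.9% of the summed span. In single clusters the filled share ran from 8.33% to 48.0%, with a median of 16.7%. Most of the length of a typical cluster was therefore outside its own peaks.

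The longest series of peaks lay on chromosome V at 11947311 to 11964479, with 12 peaks in 17.2 kb. In order along the chromosome its combined peak numbers were 986, 489, 1898, 1423, 1542, 702, 59, 2229, 1531, 740, 301 and 1173. The best overlapping replicate 1 peaks had the numbers 1105, 380, 1817, 1817, 1849, 695, 56, 2658, 808, 1344, 282 and 820. In replicate 2 they had the numbers 1206, 635, 1089, 1089, 3450, 1076, 58, 2804, 2084, 529, 329 and 9367. One peak near the middle was by far the strongest in all 3 lists, the one at 11960692 to 11960984 came second in all 3, and the last peak was weak in replicate 2 alone. The repeated numbers, 1817 and 1089, belong to a pair of overlapping intervals that share a replicate peak.

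The tightest cluster by the median distance between neighbouring centres was on chromosome I at 7709169 to 7717284, where 9 peaks lay a median of 790 bp apart. Its combined numbers, in order, were 223, 755, 265, 1188, 226, 514, 51, 80 and 1998. The replicate 1 numbers were 262, 322, 295, 295, 198, 290, 45, 65 and 3092, and the replicate 2 numbers were 211, 1871, 311, 311, 235, 743, 78, 126 and 3524. It had 5 peaks within number 500, the highest count of any cluster, shared with the clusters on I at 9539460 to 9564618 and on II at 7809536 to 7819696. Neighbours here were thus mostly strong, and the same pair of peaks, at 7714605 to 7715194 and 7715594 to 7716040, led in all 3 lists. The other tight clusters were on X at 3309695 to 3320436 (6 peaks, median spacing 949 bp) and on III at 6475401 to 6479793 (5 peaks, 961 bp). The cluster on X owes part of its low median to an overlapping pair, peaks 300 and 2155 with centres 236.5 bp apart. It held 5 regions after merging. The tightest cluster also held an overlapping pair, peaks 265 and 1188 (283 bp), and 8 regions after merging. Median spacing after merging is not given for single clusters. The loosest clusters were on III at 7709927 to 7734403 (6 peaks, 5198 bp), on I at 11085905 to 11105980 (5 peaks, 4994 bp) and on III at 4448133 to 4475869 (8 peaks, 4669 bp).

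**Figure D1:**
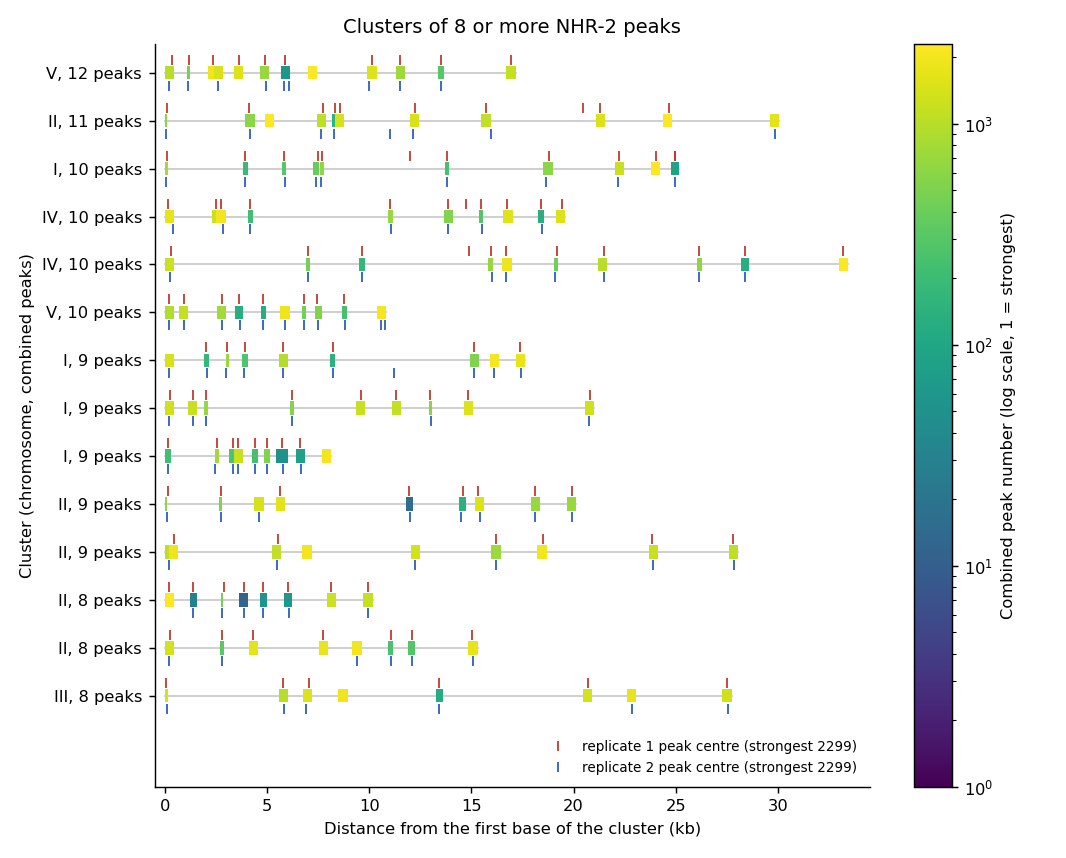
Positions of peaks in the 14 clusters of 8 or more combined peaks, as distance in kb from the first base of each cluster; coloured boxes are combined peaks at their width, coloured by peak number on a log scale, and ticks are centres of replicate 1 (above) and replicate 2 (below) peaks up to number 2299. Most boxes stand apart from each other with a tick of each replicate beside them.

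Spacing was measured between the centres of neighbouring members, which gave 392 pairs. The median spacing was 2007 bp, with quartiles of 1089 and 3596 bp. In 377 pairs (96.2%) the intervals shared no base, against 552 of 588 pairs (93.9%) in clusters of 2 to 4 peaks, and 94.8% of all neighbouring pairs. The empty stretch between such members had a median of 1712 bp and ran from 19 to 9678 bp. Only 1 pair had centres between 300 and 500 bp apart, while 65 pairs (16.6%) were between 500 and 1000 bp, 113 (28.8%) between 1000 and 2000 bp, 139 (35.5%) between 2000 and 5000 bp and 58 (14.8%) beyond 5000 bp. The remaining 16 pairs lay under 300 bp. The usual width of a combined peak was 450 bp, so pairs closer than that overlap unless one of them is narrower. The median spacing in clusters of 2 to 4 peaks was 2570 bp, but a limit on cluster size changes spacing by construction, so no difference is drawn from it.

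**Figure D2:**
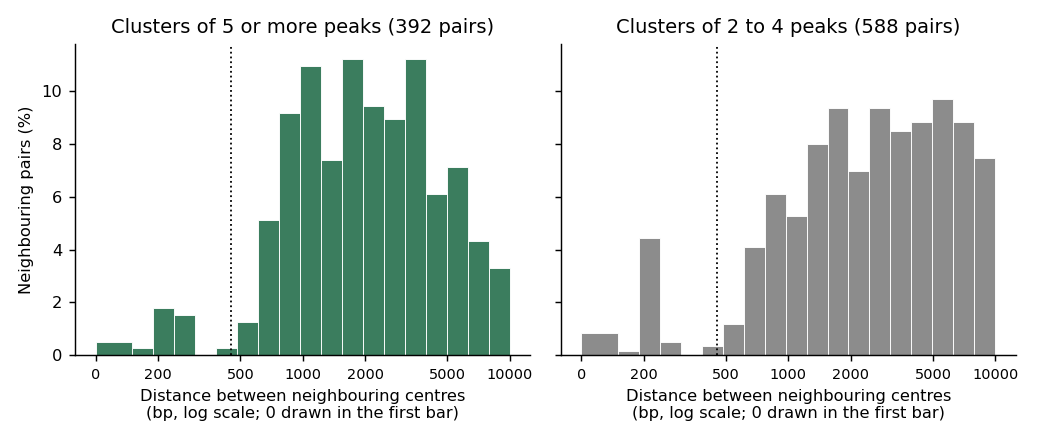
Distances between centres of neighbouring combined peaks in clusters of 5 or more peaks (left, 392 pairs) and of 2 to 4 peaks (right, 588 pairs), in bp on a log scale, with bars giving the percent of pairs and a dotted line at the usual width of 450 bp. In both panels a small group of pairs lies near 200 bp, few lie between 300 and 500 bp, and most lie above 500 bp.

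The 15 overlapping pairs stood in 15 different clusters. Clusters of 2 to 4 peaks held 36 such pairs. In 13 of the 15 pairs of the dense clusters the centres were 178.5 to 283 bp apart and the intervals shared 41 to 250 bp. In the other two the intervals were the same to the base. These were peaks 43 and 1955 on chromosome V at 14433569 to 14433943 and peaks 256 and 410 on X at 5475116 to 5475697. In all 15 pairs both members had the same best overlapping peak in replicate 1 and also in replicate 2. The stronger member of a pair had a median combined number of 465 and the weaker of 1876. With overlapping intervals merged, 67 of the 71 clusters still held 5 or more regions. The 4 that did not were on II at 6409034 to 6418389, on III at 1921129 to 1926826, on IV at 553939 to 563434 and on X at 5466299 to 5480602. With identical intervals counted once, the cluster on X alone fell to 4.

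Replicate peaks of any strength were used to ask whether the stretches between members were also called. Of the 377 stretches, 0 were covered end to end by replicate 1 peaks and 5 by replicate 2 peaks, and the longest of those 5 was 278 bp. No stretch over 1000 bp (255 of the 377) was covered end to end, even with both lists pooled. The usual peak width was 400 bp in replicate 1 and 470 bp in replicate 2. Covering such a stretch would thus take several calls in a row. This count therefore cannot tell separate sites from a broad region. Replicate 1 peaks covered 21.2% of the bases between members and replicate 2 peaks 19.6%. The share covered in other parts of the genome is not given here. The longest run of bases called in neither list had a median of 798 bp per stretch. Apart from the 15 overlapping pairs and the 5 short stretches covered end to end, the members were separate calls with uncalled bases between them. A further peak lying wholly inside the stretch was present in 201 stretches (53.3%) in replicate 1 and in 149 (39.5%) in replicate 2. Most were weak, since the strongest one per stretch stood at a median number of 5389 for replicate 1 and 6457 for replicate 2. It was within number 2299 in 22 stretches of replicate 1 and 14 of replicate 2. Peak lists hold called intervals and no read profile, so a broad rise in reads below a set of summits would not be visible in them and was not tested.

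The replicates placed the members alike, and the other combined peaks about as closely. For the 458 members overlapped in both lists, the centres of the best replicate 1 and replicate 2 peaks were a median of 33 bp apart, and 404 (88.2%) were within 100 bp. The widest offset was 429 bp. For peaks standing alone the median offset was 34 bp (n = 839). Both replicate peaks overlap the same member by definition, which limits how far apart they can be.

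Every list supported nearly all members. Replicate 1 overlapped 462 of 463 members (99.8%, exact 95% Clopper-Pearson interval 98.8 to 99.99%; all combined peaks 99.8%). Replicate 2 overlapped 459 (99.1%, 97.8 to 99.8%; all combined peaks 99.1%). These intervals cover counting error and treat members as independent, which neighbours are not. The shares were at the level of the whole combined list, which was made from the same libraries, so they are no separate evidence for the members. The member without a replicate 1 peak was on V at 1580392 to 1580841 (number 2072 in the combined list, 890 in replicate 2). The 4 without a replicate 2 peak were on III at 5138882 to 5139331 (number 517 in replicate 1), on V at 6679768 to 6680217 (1060) and 14366093 to 14366542 (1278), and on X at 3972281 to 3972730 (525). Most members could also be given an overlapping replicate peak of any strength that no other member needed, namely 459 in replicate 1 and 456 in replicate 2. Every member had such a peak in 67 clusters in replicate 1 and in 64 in replicate 2. The best replicate peak was shared in all 15 overlapping pairs, so a weaker overlapping peak could count. No such count is given for other combined peaks.

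Support among strong replicate peaks was less complete. Both replicates matched 421 members (90.9%) within their strongest 5000 peaks, against 90.4% of all combined peaks. That share in both replicates was 92.6% for clusters of 2 to 4 peaks and 87.5% for peaks alone. Within the strongest 2299 peaks of both, 347 members were matched (74.9%), against 661 of 987 (67.0%) for clusters of 2 to 4 peaks and 464 of 849 (54.7%) for peaks alone. Of all combined peaks, 64.0% were. Within number 2299, replicate 1 matched 426 members (92.0%) and replicate 2 matched 376 (81.2%). Of the 987 peaks in clusters of 2 to 4, replicate 1 matched 848 (85.9%) and replicate 2 matched 772 (78.2%). Of the 849 peaks alone, replicate 1 matched 637 and replicate 2 matched 636. Members thus stood less far above the other peaks in replicate 2 than in replicate 1. The highest best-match number was 22802 in replicate 1, for the combined peak 2294 on I at 5827089 to 5827538, whose replicate 2 number was 917. The peak numbers of the replicates were related across members (Spearman's rho 0.73, n = 458 members). For clusters of 2 to 4 peaks rho was 0.64 (n = 977 peaks) and for peaks alone 0.39 (n = 839). These are correlations across peaks of the same 2 libraries, and the method named in the files keeps peaks ranked alike in replicates.

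Counting replicate peaks directly in the spans gave a stricter picture. In replicate 1, 62 of the 71 spans held the centres of 5 or more of its strongest 2299 peaks, and in replicate 2, 48 did. Both did for 43 clusters, replicate 1 alone for 19, replicate 2 alone for 5 and neither for 4. Of the 45 clusters with 6 or more combined peaks 38 held 5 or more in both replicates, while of the 26 clusters with exactly 5 combined peaks 5 did. The 4 clusters below 5 in both were on II at 11632626 to 11637352, on III at 4269368 to 4282400, on IV at 553939 to 563434 and on V at 6224349 to 6234313, each of 5 combined peaks. They held 4, 4, 4 and 3 strong peaks in replicate 1, and the same numbers in replicate 2. Each of the 14 clusters of 8 or more combined peaks held 6 or more in both. The cluster on V at 1570004 to 1580841 (10 combined peaks) held 8 in replicate 1 and 11 in replicate 2, and the one on I at 9539460 to 9564618 (10) held 12 and 9.

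**Figure D3:**
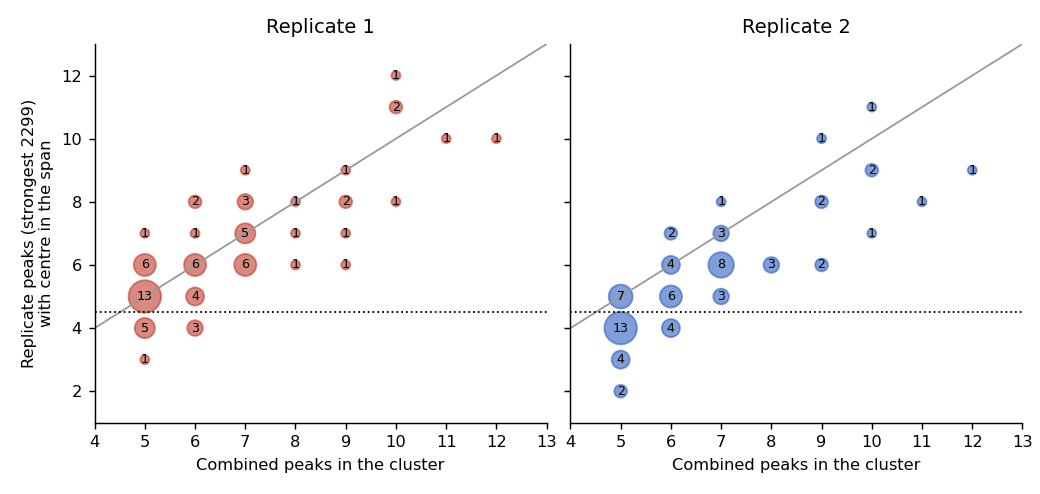
Number of replicate peaks up to number 2299 with their centre in the span of each cluster (vertical axis) against the number of combined peaks in it (horizontal axis), for replicate 1 (left) and replicate 2 (right); circles give the number of clusters, the solid line marks equal counts and the dotted line separates 5 from 4. In replicate 1, 62 clusters lie above the dotted line, and in replicate 2, 48 do.

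Joining the strongest 2299 peaks of each replicate by the same rule, leaving out mitochondrial ones, gave 71 clusters of 5 or more peaks in replicate 1 (477 peaks) and 58 in replicate 2 (367 peaks). Of the replicate 1 clusters 62 (87.3%) met a combined cluster, as did 49 of the replicate 2 clusters (84.5%). In the other direction, 62 combined clusters (87.3%) were met by replicate 1 and 49 (69.0%) by replicate 2. The combined list was made from the same libraries, so these shares are no separate evidence for the clusters. The largest rebuilt clusters held 12 and 11 peaks, and the median spacing was 1842 and 2315 bp. Over the full lists, called peaks were also dense in the spans, with 984 replicate 1 peaks and 822 replicate 2 peaks. That was 0.915 and 0.765 peaks per kb of span, or 3.12 and 3.17 times the figure over all nuclear chromosomes, a ratio that includes the members' own replicate peaks.

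Members ranged over the whole combined list, from number 1 to 2299, and a cluster commonly held peaks of very different numbers. Their median combined number was 853 (quartiles 397 and 1531), against 1086 for peaks of clusters of 2 to 4 and 1368 for peaks alone. The replicates gave the same order. The median best-match number in replicate 1 was 800 for members, 1069 for clusters of 2 to 4 and 1471 for peaks alone, and in replicate 2 it was 957, 1077 and 1299. These are descriptions without a test, because the combined list that chose the members was made from these libraries. Members made up 6 of the strongest 10 combined peaks, 36 of the strongest 100 and 145 of the strongest 500 (29.0%). Their share was 22.0% at numbers 501 to 1000, 17.2% at 1001 to 1500, 15.6% at 1501 to 2000 and 14.7% beyond 2000, so it declined along the list.

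The best combined number per cluster had a median of 165 and ran from 1 to 778, and 16 clusters had a best number up to 50, 26 up to 100 and 65 up to 500. The other 6 had no member up to 500. The best of several peaks has a low number by construction, and clusters of 4 peaks, which were left out, had a median best number of 274, against 251.5 for clusters of 5. The weakest member of each cluster had number 1219 or higher in all 71, with a median of 2027. The weakest of several peaks likewise has a high number by construction. A cluster had a median of 2 members within number 500. In 60 clusters the best combined member also had the best replicate 1 number and in 65 the best replicate 2 number. Replicates 1 and 2 named the same leading member in 55 of 71 clusters (77.5%). The numbers of the other members were set beside their distance from this leader, which is the strongest of its cluster by definition. Among the 29 other members within 1 kb of the leader the median number was 1053, and it was 652 for the 32 at 1 to 2 kb, 962 for the 119 at 2 to 5 kb, 1119 for the 119 at 5 to 10 kb and 1122 for the 93 further away. Members within 1 kb include calls that overlap the leader itself. An example is peak 1955, which has the same interval as leader 43. The closest group thus mixes such calls with separate neighbours. The number did not change steadily with distance, and quartiles at 1 to 2 kb (368 and 1568) overlapped those within 1 kb (576 and 1771).

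**Figure D4:**
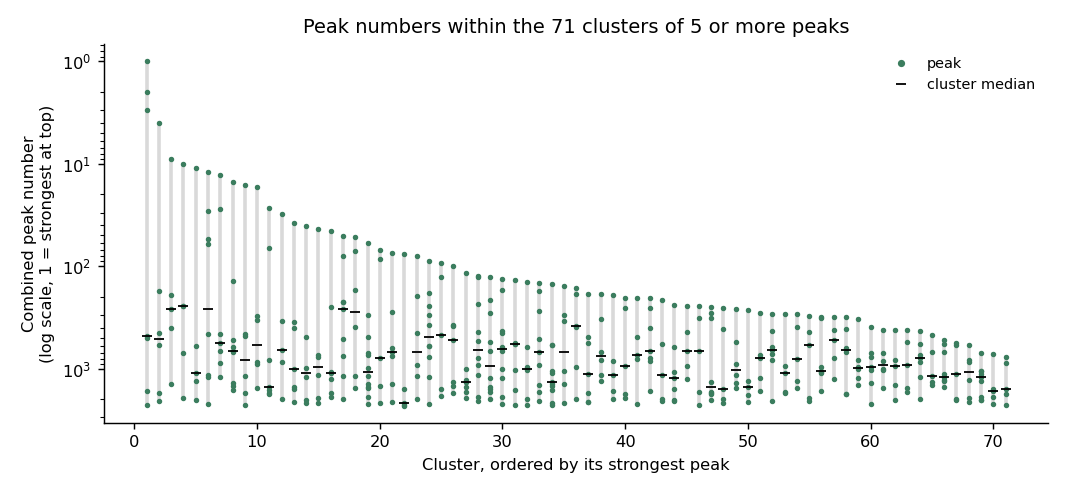
Combined peak numbers (vertical axis, log scale, strongest at the top) of all 463 members, in 71 clusters ordered along the horizontal axis by their strongest peak; points are peaks, black dashes are cluster medians and grey bars run from the best to the weakest member. The leading peak ranges from number 1 to 778, and every cluster reaches number 1219 or higher. The best and weakest of several peaks lie far apart by construction.

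The strongest cluster lay on chromosome I at 5818789 to 5829231 and held combined peaks 1, 2 and 3 among its 7 members. In order, its combined numbers were 1644, 2, 3, 481, 1, 2294 and 504. The replicate 1 numbers were 1224, 2, 3, 153, 1, 22802 and 468, and the replicate 2 numbers were 6664, 2, 5, 2478, 1, 917 and 758. The 3 leaders lay between 5820357 and 5823027 together with peak 481. The replicates differed most on the weakest peaks, 2294 and 1644, and on peak 481 among the leaders. The gene table of the WBcel235 assembly places nhr-2 on chromosome I and unc-119 on chromosome III, both carried by the transgene as well. Whether either gene lies in a cluster was not determined, since that table is of another build, so transgene signal in the cluster with peaks 1 to 3 was not tested.

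Other clusters with a leader among the strongest 11 combined peaks held fewer peaks. On I at 8124411 to 8139081 the 6 members had the combined numbers 2097, 446, 1716, 586, 176 and 4, the replicate 1 numbers 2227, 386, 1688, 538, 158 and 5, and the replicate 2 numbers 744, 650, 2359, 771, 192 and 3. Its strongest peak stood at one end and its neighbours weakened away from it with 1 exception in all 3 lists. On I at 14947870 to 14962660 the 5 members had numbers 1410, 264, 9, 403 and 191, in replicate 1 1744, 251, 7, 645 and 339, and in replicate 2 2027, 265, 12, 239 and 149. On V at 6679768 to 6685928 they were 1954, 248, 245, 10 and 699, in replicate 1 1060, 348, 244, 16 and 826, and in replicate 2 206, 295, 7 and 727 for the last 4, with no overlapping peak for the first. On V at 7739841 to 7746256 they were 1312, 11, 2049, 602 and 1096, in replicate 1 1112, 11, 2078, 426 and 1258, and in replicate 2 1919, 11, 4248, 1509 and 875. In each of these clusters 1 leader stood far ahead of the next member in every list.

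The clusters with the weakest leaders showed the other end. They were on IV at 553939 to 563434 (5 peaks, best number 778), on III at 7546531 to 7559613 (5 peaks, 721) and on II at 13829002 to 13857043 (9 peaks, 708). On IV the combined numbers were 778, 878, 2270, 1785 and 1574, the replicate 1 numbers 806, 800, 800, 1155 and 1102, and the replicate 2 numbers 728, 1278, 1278, 1973 and 5890. Its peaks 878 and 2270 overlap and share their replicate peaks, and the cluster held 4 regions after merging. In replicate 2 its members matched 3 different peaks within number 2299, and 1 further such peak, number 2083, lay between members. The cluster on II held 6 strong peaks in each replicate although no member was stronger than number 708.

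Width went with rank among the members. Of the 463 members 274 had the usual width of 450 bp, 177 (38.2%) were narrower and 12 were wider (all combined peaks: 26.9% narrower). Narrow members had a median combined number of 319, members of usual width 1348 and wide ones 11.5. The same held outside dense clusters, where the narrower of the peaks alone had a median number of 359.5 and those of usual width 1545. Width here is that of the called interval and is no measure of how much DNA the protein covers.

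Chromosomes differed in how far their peaks gathered in dense clusters. Chromosome V had 93 of its 304 combined peaks in 14 such clusters (30.6%) and chromosome II had 103 of 377 in 15 clusters (27.3%). Chromosome I had 89 of 404 in 13 clusters (22.0%), IV 54 of 309 in 8 (17.5%), III 63 of 378 in 11 (16.7%) and X 61 of 527 in 10 (11.6%). X, which carried the most combined peaks per Mb (29.7), thus had the lowest share in dense clusters, and V, with the fewest per Mb (14.6), the highest. In the rebuilt replicate clusters V was again highest, with 28.2% of its peaks in replicate 1 and 26.7% in replicate 2. X was again lowest, with 14.5% in replicate 1 and 8.76% in replicate 2. Both replicates gave the places between in the same order. It differed from the combined list only in that I stood ahead of II. Chromosome I had 27.8% in replicate 1 and 19.9% in replicate 2, and II had 22.7% and 19.4%. Members on X were also the most widely spaced, with a median of 3122 bp between neighbours, against 1743 to 2179 bp on the other chromosomes. No test was made of these shares, which follow from the positions that chose the members.

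**Figure D5:**
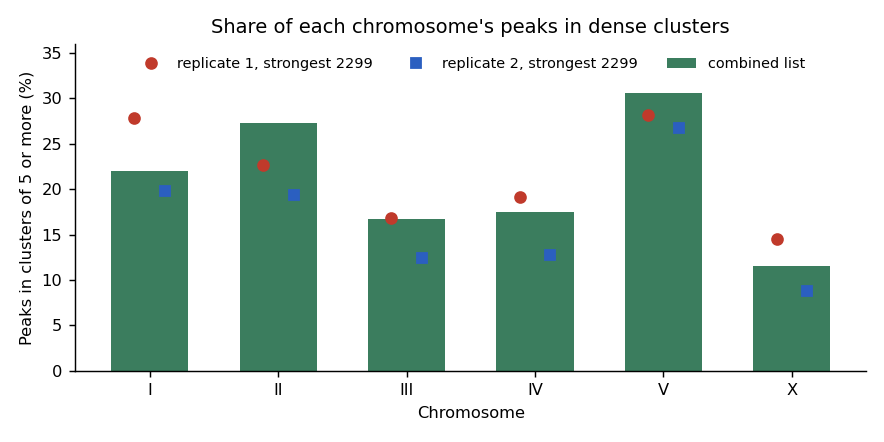
Percent of each chromosome's peaks that stood in clusters of 5 or more, for the combined list (bars) and for clusters rebuilt from the strongest 2299 peaks of replicate 1 (circles) and replicate 2 (squares). V is highest and X lowest in all 3 lists.

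The values at the limits of the rule were as follows. The widest joined gap was 9993 bp, on II between peaks 348 and 1530, in a cluster of 7. The narrowest gap beside a dense cluster that was not joined was 11062 bp, on III between peak 2231 of the weak-led cluster that starts at 7546531 and the lone peak 1628. The nearest outside peak, over 10 kb away by the rule, was a median of 24803 bp away per cluster, with a lower quartile of 15486 bp. Clusters of 5 peaks (26, median span 10211 bp, median spacing 2054 bp, median peak number 901) were close in these measures to the 43 clusters of 4 peaks left out (8138 bp, 2155 bp and 891).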

How the data were processed

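Per the labels, 2 anti-GFP ChIP libraries and 2 input libraries of embryos were sequenced. The deposited peak lists give, per the file headers, intervals on WormBase WS220, and their source column names SPP with the irreproducible discovery rate, which keeps peaks ranked alike in replicates. Each peak's score is the authors' value of unstated scale, used only within a list. The sources used here do not name the aligner, the software versions, the thresholds or the way the combined list was made.

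Here peaks were joined at 10 kb between centres. A replicate peak supported a member when they shared at least 1 bp, and the overlapping peak of lowest number was the best match. Chromosome lengths end at the last combined peak. Joining, overlap and merging were tested on 20 simulated lists against known clusters and bedtools 2.31.1. Values were computed in Python 3.11.15 with scipy 1.17.1, pandas 2.3.3, numpy 2.4.6 and matplotlib 3.10.9. The members, the measures and the rule for named clusters (8 or more peaks, the 5 strongest and 3 weakest leaders, the 3 smallest and largest spacings, members without support, and the limits of the rule) were chosen with earlier results of these data known. Other named clusters were picked after their values were seen. No test between groups was made, since the labels give 1 condition and no input list was used. The labels leave unsaid whether the replicates are separate cultures. No sequence is printed, because no WS220 genome was used.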

Additional observations from a re-analysis of the deposited data

How the results depend on the processing

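The limits chosen for joining set the number of clusters. Joining at 5000 bp gave 43 clusters of 265 peaks (median spacing 1601 bp, median span 9451 bp), and at 20000 bp it gave 100 clusters of 686 peaks (2624 bp and 24494 bp). The stronger 50% of the combined list gave 21 clusters of 121 peaks, whose neighbours shared no base in 100% of pairs, as after merging by construction, and replicate 1 overlapped 100% of them. Leaving out 1 replicate, with the strongest 2299 peaks of the other in place of the combined list, gave 58 to 71 clusters, 367 to 477 peaks, a spacing of 1842 to 2315 bp, a span of 14412 to 15637 bp and 93.2 to 95.6% of pairs apart. A reciprocal overlap of 50% lowered support to 92.4% in replicate 1 and 78.2% in replicate 2, and the strongest 5000 peaks of replicate 2 gave 92.0%. Counting identical intervals once, chosen after seeing the data, moved no result beyond its spread. No paired analysis was possible because no test between groups was made and input peak lists were not used. Depth is unknown, so a member missing from a replicate list cannot be called unbound.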

Other observations

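Dense clusters were mostly far from each other, with a median of 447402 bp to the next on the same chromosome. Within 50 kb of each other lay 2 pairs, on V at 11656372 to 11674296 and 11698472 to 11711499 (7 and 6 peaks, 24176 bp apart) and on X at 4745839 to 4765267 and 4797729 to 4817331 (5 and 6 peaks, 32462 bp apart). The next pair, also on V, was 52974 bp apart. The leading peak of a cluster was its first or last member in 20 of 71 clusters (28.2%), and first and last members made up 30.7% of all members. The middle 50% of the chromosomes held the centres of 44 of 71 clusters (62.0%) and 60.9% of the members, against 59.4% of peaks in clusters of 2 to 4 and 51.2% of peaks alone. Intervals deposited more than once with the same start and end were found 5 times among neighbouring combined peaks, 2 of them in dense clusters.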
